A study of Mus musculus with 8 samples.

Results

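The expression of 8 complement genes was described in cells of the mouse ascending thoracic aorta: the C1q chain genes C1qa, C1qb and C1qc, the C1 protease genes C1ra and C1s1, the component genes C4b and C3, and Serping1, the gene of the C1 inhibitor. They were taken by symbol, 8 of the 32285 genes in the matrix, and each matched 1 gene ID. The cells came from young wild-type mice of 11, 12 and 13 weeks, for which the labels name neither strain nor sex. The labels give no treatment, and all 4 cell groups come from the same animals. The tissue was dissociated with type II collagenase and elastase, and dead cells were removed before droplet single-cell RNA sequencing. A hashtag antibody marked each age, hashtag 1 for 11 weeks, hashtag 2 for 12 weeks and hashtag 3 for 13 weeks, so no test was made between ages. Each hashtag was read as 1 animal, although the labels do not say whether an age held 1 animal or several. The 4 gene expression and 4 hashtag libraries were deposited as 1 matrix whose barcodes all carry the same suffix, so barcodes shared between libraries could not be counted.

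Complement is a cascade of blood and tissue proteins that tags particles and damaged cells for removal. In the classical pathway, C1q, built from the A, B and C chains, binds a target and activates the proteases C1r and C1s, which cleave C4 and C2 to form an enzyme that splits C3. The C1 inhibitor blocks C1r and C1s. The liver makes most of the plasma proteins, while tissue macrophages are a known source of C1q and connective tissue fibroblasts of C3, C1r, C1s and C1 inhibitor.

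Promoter sequences are shown for members of both expression patterns described below, fibroblast-high (C3, C1ra) and macrophage-high (C1qb, C1qc), because these members moved together between groups. RefSeq on build GRCm38.p6 gave a window of 250 bases before to 50 bases after a transcript start for 5 of the 8 members; C4b, Serping1 and C1qa had none. Each is written 5′ to 3′ on the strand of the gene. Capitals mark a match to a C/EBP core (TTGCNNAA, where N is any base) or an ETS core (GAGGAA), each searched on both strands, and no matches overlapped.
C3, chr17:57228087-57228386, minus strand: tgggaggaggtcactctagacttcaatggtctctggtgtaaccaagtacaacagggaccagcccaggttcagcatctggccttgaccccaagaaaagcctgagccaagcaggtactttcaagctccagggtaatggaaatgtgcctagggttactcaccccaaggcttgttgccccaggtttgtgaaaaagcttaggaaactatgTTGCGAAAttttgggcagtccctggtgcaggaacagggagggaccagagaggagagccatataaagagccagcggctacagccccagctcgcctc
C1ra, chr6:124512371-124512670, plus strand: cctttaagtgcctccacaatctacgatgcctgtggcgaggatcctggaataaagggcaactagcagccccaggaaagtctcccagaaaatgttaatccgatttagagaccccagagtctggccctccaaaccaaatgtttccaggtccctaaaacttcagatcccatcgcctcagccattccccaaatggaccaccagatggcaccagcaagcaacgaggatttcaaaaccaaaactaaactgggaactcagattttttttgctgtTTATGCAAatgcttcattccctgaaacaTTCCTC
C1qb, chr4:136886151-136886450, minus strand: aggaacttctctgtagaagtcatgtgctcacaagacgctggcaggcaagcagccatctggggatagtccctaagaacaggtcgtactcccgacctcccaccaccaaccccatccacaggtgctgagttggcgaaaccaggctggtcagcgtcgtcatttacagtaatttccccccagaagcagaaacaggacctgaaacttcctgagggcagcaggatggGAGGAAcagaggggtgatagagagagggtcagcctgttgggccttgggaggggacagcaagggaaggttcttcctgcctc
C1qc, chr4:136892865-136893164, minus strand: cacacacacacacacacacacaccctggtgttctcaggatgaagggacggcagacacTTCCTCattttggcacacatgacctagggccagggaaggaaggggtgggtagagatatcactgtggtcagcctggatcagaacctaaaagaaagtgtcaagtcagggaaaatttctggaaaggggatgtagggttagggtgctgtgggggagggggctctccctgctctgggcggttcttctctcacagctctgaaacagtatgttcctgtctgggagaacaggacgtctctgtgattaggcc
The C3 window held the C/EBP core at -45 from the start on the strand of the gene, and the C1ra window held it at 17 after the start on the opposite strand. C1s1 had 2 windows, not printed, of which 1 held that core at -242. The ETS core stood at -30 in the C1qb window on the strand of the gene, at -193 in the C1qc window on the opposite strand and at 45 in the C1ra window on the opposite strand. Among 32851 promoter windows of the same length, 10.8% held the C/EBP core and 28.3% the ETS core, so each match is a description of letters and not evidence of a bound factor. In the genome the genes of the C1q chains lie side by side on chromosome 4, C1ra and C1s1 are neighbours on chromosome 6, C4b and C3 both lie on chromosome 17, and Serping1 lies on chromosome 2.

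Barcodes entered 1 of 4 groups by marker transcripts that are not among the 8 genes. Of 48467 barcodes, 45125 had at least 500 genes, 27589 of these had at most 20% mitochondrial UMIs (unique molecular identifiers, the counted molecules), and 9939 of these had fewer than 10 haemoglobin UMIs and were kept. The macrophage group (at least 3 UMIs of Lyz2, Mrc1, Pf4 and Csf1r) held 90 barcodes, the fibroblast group (Dcn at least 0.3% of UMIs) 1392, the endothelial group (at least 3 UMIs of Pecam1, Cdh5 and Gpihbp1) 696 and the smooth muscle cell (SMC) group (Acta2, Tagln and Myh11 at least 1.5% of UMIs) 6700. A further 454 kept barcodes met the rules of several groups and were dropped, and 607 met none. Compared between the 4 groups, the marker list of each was highest in its own group. The summed level was 10978 counts per 1000000 gene UMIs (CPM) for 9 macrophage genes in the macrophage group. It was 32073 CPM for 8 fibroblast genes, 7576 CPM for 8 endothelial genes and 34267 CPM for 8 SMC genes in theirs. Every list includes the genes of its group rule, such as Dcn at 13370 CPM in fibroblasts. This order therefore follows in part from the rule and is no separate check of the groups. The macrophage group also carried 26781 CPM of 4 neutrophil genes, more than of its own list, against 5.03 CPM in the fibroblast group and 8.51 CPM in the SMC group. In macrophages called as hashtags 1, 2 and 3 the neutrophil genes stood at 21216, 8990 and 6359 CPM. The fibroblast group carried 159 CPM of 6 mesothelial genes, against 1.24 CPM in the endothelial group and 4.27 CPM in the SMC group. SMC markers stood at 4649 CPM in macrophages, 2741 CPM in fibroblasts and 4112 CPM in endothelial cells.

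Tests used barcodes with a single hashtag, summed per hashtag and group into 12 sums of 71454 to 4066571 UMIs. In hashtag order these sums held 19, 19 and 30 macrophages, 121, 73 and 88 fibroblasts, 216, 128 and 177 endothelial cells, and 523, 390 and 485 SMCs. A single hashtag was called on 75.6% of macrophages and 74.9% of endothelial cells but on 20.3% of fibroblasts and 20.9% of SMCs, and the calls in the last pair of groups rested on weak signals. Fibroblasts called as hashtag 1 held a median of 149 UMIs of that hashtag, against 97 and 94.5 in fibroblasts called as the other two, whereas macrophages called as hashtag 1 held 444, against 80 and 79.5. Levels are CPM of a sum. Fold changes and adjusted p-values come from edgeR's quasi-likelihood test with the hashtag as a block, adjusted by the Benjamini-Hochberg method over all 8274 genes tested and called under 0.05. All 8 genes passed the filter on low counts in the fit of the 4 groups.

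The C1q chains were transcripts of the macrophage group. C1qa stood at 2995, 3191 and 4094 CPM in macrophages of hashtags 1, 2 and 3, against 1.61, 5.32 and 6.41 CPM in fibroblasts, 3.25, 3.90 and 1.503 CPM in endothelial cells and 2.70, 5.08 and 3.01 CPM in SMCs. C1qb stood at 1833, 2807 and 3184 CPM in macrophages, against at most 5.32 CPM in any fibroblast sum, 8.13 CPM in any endothelial sum and 2.71 CPM in any SMC sum. C1qc stood at 1749, 2052 and 2147 CPM in macrophages, against at most 6.41, 8.13 and 3.05 CPM in sums of the other groups in that order. Every macrophage sum lay far above every other sum for all the chains, with no overlap.

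Over fibroblasts, C1qa, C1qb and C1qc were higher in macrophages by 9.55 ± 0.24, 9.69 ± 0.27 and 9.33 ± 0.30 on the log2 scale (SE), with adjusted p of 1.40e-27, 3.20e-26 and 1.87e-24 in edgeR. Over SMCs the differences were 9.81 ± 0.19, 10.32 ± 0.21 and 10.01 ± 0.23, and over endothelial cells 10.21 ± 0.25, 8.84 ± 0.24 and 8.45 ± 0.26. The C1q UMIs below these folds were few, between 0 and 3 per fibroblast sum, 0 and 5 per endothelial sum, and 4 and 15 per SMC sum. The sizes moved by over 1.5 times under several settings: the fibroblast contrast of C1qb was 6.29 with hashtags centred per cell, and the SMC contrast of C1qa was 8.69 with no haemoglobin limit. C1qc over fibroblasts was 8.65 without hashtag 1 and 10.54 without hashtag 3, and C1qb over endothelial cells was 8.04 without hashtag 3. Each of these differences was called under every alternative run.

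**Figure D1:**
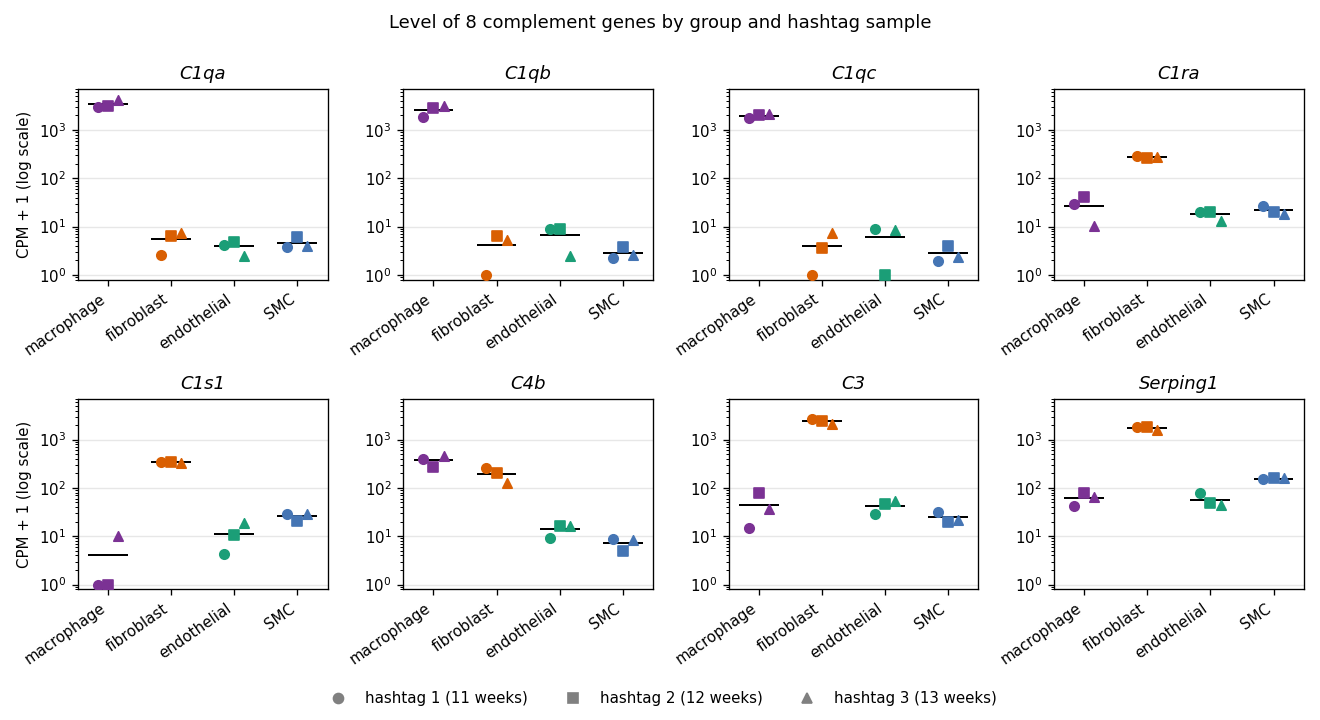
Level of each of the 8 genes (CPM + 1, log scale) in the macrophage, fibroblast, endothelial and SMC groups; each point is 1 hashtag sample and the bar is the mean of 3. The C1q chains are high in macrophages, C1ra, C1s1, C3 and Serping1 in fibroblasts, and C4b in both.

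Outside macrophages the C1q chains stood at few UMIs. In fibroblasts against SMCs none of the chains was called, with differences of 0.25 ± 0.65, 0.63 ± 0.86 and 0.68 ± 0.91 for C1qa, C1qb and C1qc. With hashtags centred per cell all of them were called, at 2.60, 4.01 and 2.38. C1qb was called higher in endothelial cells than in SMCs by 1.48 ± 0.63 (adjusted p = 0.0485, edgeR), from 10 UMIs in endothelial cells and 19 in SMCs, and kept the call under 3 of 11 alternatives. C1qc in endothelial cells over SMCs was 1.57 ± 0.67 (adjusted p = 0.0504, edgeR) and was called under 3 of 11 alternatives, with DESeq2 (adjusted p = 0.0358), with no TMM (adjusted p = 0.0393, edgeR) and without hashtag 2 (2.50, adjusted p = 0.00328, edgeR). Barcodes with under 500 genes, rich in haemoglobin, served as a comparison for RNA outside the 4 groups: with haemoglobin removed they held 25.6, 19.8 and 18.1 CPM for C1qa, C1qb and C1qc, above the levels over all barcodes in fibroblasts (6.51, 6.36 and 2.66 CPM), endothelial cells (4.12, 5.77 and 5.77 CPM) and SMCs (3.10, 1.83 and 1.29 CPM). The part of RNA from other cells in these UMIs was not tested. Fibroblasts on which several hashtags were called (143 barcodes) held 35.7 CPM of C1qa, against 2.42 CPM in the 967 with no hashtag. In the 46 dropped barcodes that met the macrophage and SMC rules at once, C1qa stood at 449 CPM.

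Within the macrophage group the C1q chains appeared together. All the chains were found in 69 of the 90 barcodes, 1 or 2 of them in 6, and none in 15. The 15 barcodes without C1q held 1 UMI of Mrc1, the mannose receptor of tissue macrophages, 3563 UMIs of S100a8, a neutrophil gene, in 10 barcodes, and 0 UMIs of C4b. The 69 with every chain held 406 UMIs of Mrc1, 152 of Cd163, a scavenger receptor of tissue macrophages, 0 of S100a8 and 119 of the 120 C4b UMIs of the group. These sets of 15 and 69 barcodes held 67004 and 237755 gene UMIs. Mrc1 is a gene of the group rule, so its level is no separate check. The rule gene Lyz2 stood at 4612 CPM in the 15, in 13 barcodes, and at 6414 CPM in the 69. The rule genes Pf4 and Csf1r stood at 44.8 and 119 CPM in the 15, and at 2200 and 1098 CPM in the 69. In 68 macrophage barcodes with no UMI of the neutrophil, B cell and T cell marker lists, C1qa stood at 4077 CPM and C4b at 395 CPM, against 3558 and 364 CPM in all 90.

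**Figure D2:**
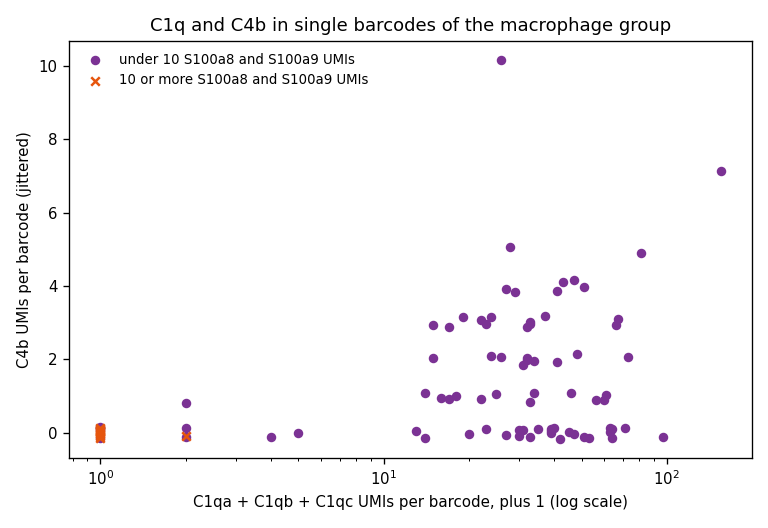
C4b UMIs (vertical axis, jittered) against C1q UMIs (horizontal axis, log scale) in the 90 single barcodes of the macrophage group. The 11 barcodes with at least 10 S100a8 and S100a9 UMIs (crosses) hold 0 C4b UMIs, and 1 of them holds C1q.

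The proteases that C1q activates were transcripts of the fibroblast group. C1ra stood at 284, 266 and 269 CPM in fibroblasts of hashtags 1, 2 and 3, against 25.3, 18.9 and 17.5 CPM in SMCs. C1s1 stood at 350, 346 and 329 CPM in fibroblasts, against 27.3, 19.6 and 28.5 CPM in SMCs. The fibroblast sums lay above all others for both genes, with means of 273 ± 9.74 and 342 ± 11.2 CPM (SD, n = 3). They held 176, 100 and 126 UMIs of C1ra and 217, 130 and 154 of C1s1. Hashtag calls in fibroblasts rested on weak signals, so these SDs need not be the spread between animals. Against SMCs the differences were 3.73 ± 0.15 for C1ra (adjusted p = 4.48e-22, edgeR) and 3.76 ± 0.16 for C1s1 (adjusted p = 7.48e-22, edgeR).

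In macrophages C1ra stood at 28.0, 39.7 and 9.10 CPM, from 6 UMIs, and C1s1 at 1 UMI in all. Macrophages were lower than fibroblasts by a difference of -3.62 ± 0.39 for C1ra (adjusted p = 1.58e-09, edgeR). For C1s1 the ratio of macrophages to fibroblasts over all their barcodes was 0.0171, with an exact 95% interval of 0.00207 to 0.0618 from 2 and 2399 UMIs. C1ra did not differ past the threshold between macrophages and SMCs (0.11 ± 0.60), macrophages and endothelial cells (0.49 ± 0.66), or endothelial cells and SMCs (-0.38 ± 0.28). C1s1 averaged 10.3 ± 7.41 CPM in endothelial cells and 25.1 ± 4.81 CPM in SMCs (SD, n = 3 each), a called difference of -1.34 ± 0.34 (adjusted p = 0.00104, edgeR) that was not called without hashtag 1 (adjusted p = 0.0548, edgeR). The difference was -2.08 without hashtag 3 and also with at most 10% mitochondrial UMIs. The call of C1s1 as lower in macrophages than in SMCs (adjusted p = 0.0448, edgeR) rests on that 1 UMI and was kept under 5 of 12 alternatives. Each protease gene has a near-identical copy, C1rb and C1s2, which held 1 and 3 UMIs in fibroblasts; the labels do not say how reads shared by the copies were counted.

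C4b, the gene of mouse complement component C4, was the member found in both cell groups. It stood at 392, 265 and 455 CPM in macrophages, from 28, 20 and 50 UMIs, against 262, 199 and 128 CPM in fibroblasts. In the other groups it stood at 8.13, 15.6 and 15.0 CPM in endothelial cells and 7.62, 4.06 and 7.40 CPM in SMCs. Every macrophage sum lay above every fibroblast sum, by little for hashtag 2 in macrophages and hashtag 1 in fibroblasts. C4b was higher in macrophages than in fibroblasts by 0.88 ± 0.23 (adjusted p = 0.00419, edgeR), a call that was lost with DESeq2 (adjusted p = 0.0562), with a ratio caller for hashtags (adjusted p = 0.0960) and without hashtag 3 (0.34, adjusted p = 0.442, edgeR). Over all barcodes the ratio was 1.57, with an exact 95% interval of 1.29 to 1.89 that covers counting error only.

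Against SMCs, C4b was higher in macrophages by 5.79 ± 0.31 (adjusted p = 6.77e-18, edgeR) and in fibroblasts by 4.91 ± 0.22 (adjusted p = 1.44e-20, edgeR). Against endothelial cells it was higher in macrophages by 4.89 ± 0.35 and in fibroblasts by 4.01 ± 0.29, both called, while endothelial cells and SMCs did not differ past the threshold (0.90 ± 0.43, adjusted p = 0.0833, edgeR). In macrophages over SMCs the value was 4.99 with no haemoglobin limit and 6.51 with the marker thresholds doubled, and in fibroblasts over SMCs 4.28 and 5.73 under the same settings. The near-identical gene C4a held 0 UMIs in macrophages and 2 in fibroblasts.

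C3, the component on which the complement pathways meet, was a transcript of the fibroblast group, with the largest fibroblast difference over SMCs of the 8 members. It stood at 2638, 2414 and 2118 CPM in fibroblasts, against 27.7, 44.9 and 52.6 CPM in endothelial cells and 31.5, 18.9 and 20.5 CPM in SMCs. In macrophages it stood at 14.0, 79.4 and 36.4 CPM, from 1, 6 and 4 UMIs. Fibroblasts were higher than SMCs by 6.65 ± 0.17 (adjusted p = 4.60e-28, edgeR) and than endothelial cells by 5.92 ± 0.19 (adjusted p = 9.80e-25, edgeR), and macrophages were lower than fibroblasts by a difference of -5.88 ± 0.28 (adjusted p = 3.86e-19, edgeR). The value over SMCs was 5.30 with no haemoglobin limit, and the value of macrophages over fibroblasts was -6.49 without hashtag 2.

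Among the other groups, C3 was called higher in endothelial cells than in SMCs by 0.73 ± 0.25 (adjusted p = 0.0132, edgeR). That call was kept under 5 of 12 alternatives and was turned round with no haemoglobin limit (-0.59, adjusted p = 0.0185, edgeR); it was lost without hashtag 2 and without hashtag 3. The C3 level of barcodes under 500 genes, with haemoglobin removed, was 96.1 CPM, above the levels over all barcodes of macrophages (57.6 CPM), endothelial cells (40.0 CPM) and SMCs (20.7 CPM). With haemoglobin left in it was 42.8 CPM, below macrophages and above endothelial cells and SMCs. The part of RNA from other cells in these levels was not tested. For C4b the level was 13.0 CPM with haemoglobin removed, above the 11.9 CPM of endothelial cells and the 5.43 CPM of SMCs. With haemoglobin left in it was 5.77 CPM, below endothelial cells and above SMCs.

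Serping1, whose protein stops C1r and C1s, was high in fibroblasts and present in SMCs. It stood at 1837, 1861 and 1598 CPM in fibroblasts, against 151, 156 and 157 CPM in SMCs. It stood at 41.99, 79.4 and 63.7 CPM in macrophages and 78.1, 46.8 and 43.6 CPM in endothelial cells. The groups fall in the order fibroblasts, SMCs, then macrophages and endothelial cells, and only the last pair overlapped. Fibroblasts were higher than SMCs by 3.52 ± 0.13 (adjusted p = 2.14e-23, edgeR), and macrophages and endothelial cells were lower than SMCs by differences of -1.39 ± 0.33 (adjusted p = 0.00116, edgeR) and -1.55 ± 0.18 (adjusted p = 1.36e-09, edgeR), calls kept under all 12 alternatives each. Macrophages and endothelial cells did not differ past the threshold (0.15 ± 0.41). The level in barcodes under 500 genes, with haemoglobin removed, was 119 CPM, below SMCs (148 CPM over all barcodes) and above macrophages (48.5 CPM) and endothelial cells (63.5 CPM). With haemoglobin left in it was 52.8 CPM, above macrophages and below endothelial cells. For C1s1 and C1ra it was 27.3 and 15.7 CPM with haemoglobin removed, near the 23.4 and 19.0 CPM of SMCs. These were 12.1 and 6.98 CPM with haemoglobin left in, below SMCs.

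Counted over the members, 5 of 8 were called higher in fibroblasts than in SMCs and 0 lower, where 21.8% of all genes tested were higher and 16.5% lower (38.3% in either direction); their median difference was 3.62, against 0.08 over all genes. In macrophages over SMCs, 4 were higher and 2 lower, where 15.5% of all genes were higher and 15.8% lower (31.3%), and the median was 3.28, against -0.14 over all genes. In macrophages over fibroblasts, 4 were higher and 4 lower, where 11.4% of all genes were higher and 14.4% lower (25.9%), with a median of -1.37, against -0.15 over all genes. In fibroblasts over endothelial cells, 5 were higher and 0 lower, where 19.7% were higher and 17.6% lower (37.3%). In macrophages over endothelial cells, 4 were higher and 0 lower, where 10.6% were higher and 11.9% lower (22.5%). In endothelial cells over SMCs, 2 were higher and 2 lower, where 26.3% were higher and 24.3% lower (50.6%), so the count of 4 of 8 is near the share over all genes. Comparisons that share a group share its sums.

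The share of barcodes with a UMI was compared at equal depth. Thinned to 1000 UMIs per barcode, C1qa was found in 78.9% of macrophages (exact 95% interval 69.0 to 86.8%), against 0.790% of fibroblasts. C3 was found in 63.6% of fibroblasts (61.1 to 66.2%), against 1.55% of SMCs, and Serping1 in 79.6% of fibroblasts (77.4 to 81.7%), against 13.0% of SMCs. C4b was found in 31.1% of macrophages (21.8 to 41.7%) and 15.9% of fibroblasts (14.1 to 17.98%). C1s1 was found in 30.4% of fibroblasts. In macrophages it was found in 0 of 90 barcodes after thinning and in 2 unthinned (2.22%, exact 95% interval 0.270 to 7.80%), which limits barcodes with a UMI and not cells that express the gene. Unthinned, the shares were 81.1% for C1qa in macrophages, and 78.4% for C3, 97.3% for Serping1, 71.2% for C1s1 and 35.3% for C4b in fibroblasts. Barcodes under 500 genes, thinned with their haemoglobin UMIs still in (55.5% of UMIs), gave 4.07% for C3, 5.15% for Serping1 and 1.11% for C1qa, so these shares are on a lower basis than the levels given above with haemoglobin removed. All barcodes had at least 1228 UMIs, so none was left out; medians were 3086.5 UMIs in macrophages, 4535.5 in fibroblasts, 2599.5 in endothelial cells and 7312.5 in SMCs.

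**Figure D3:**
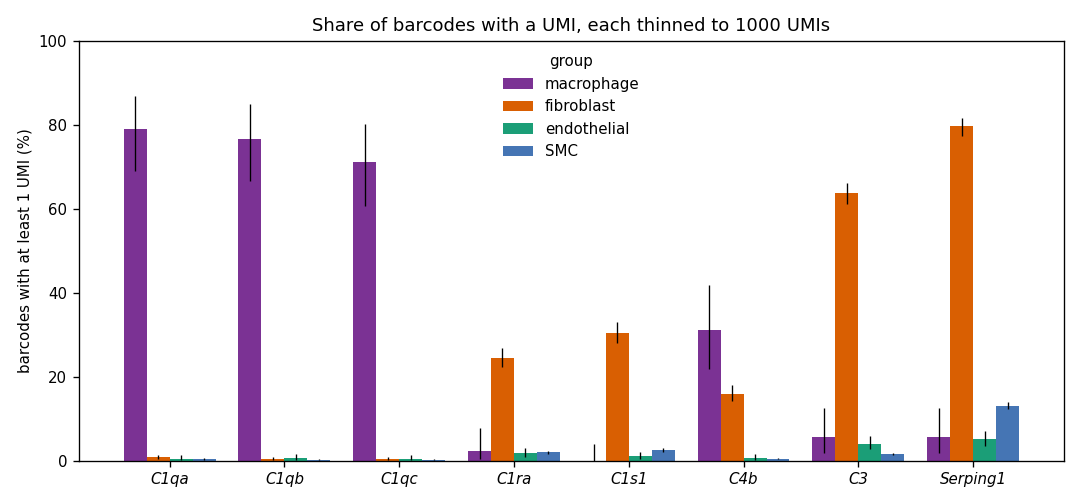
Share of barcodes with at least 1 UMI of each gene in the macrophage, fibroblast, endothelial and SMC groups, after thinning each barcode to 1000 UMIs; error bars are exact 95% binomial intervals, which cover counting error only. C4b is the gene with sizeable shares in both macrophages (31.1%) and fibroblasts (15.9%).

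The balance between members differed between some groups for C4b and C3, for C3 and Serping1 and for C1ra and C1s1, but not for every pair. C4b made up 86.3% of the C4b and C3 UMIs in macrophages (exact 95% interval 79.5 to 91.6%), against 9.37% in fibroblasts (8.93 to 9.82%) and 11.9% in barcodes under 500 genes. C3 made up 53.1% of the C3 and Serping1 UMIs in fibroblasts (52.5 to 53.7%), against 12.3% in SMCs (11.6 to 13.0%) and 44.8% in barcodes under 500 genes. C1ra made up 44.6% of the C1ra and C1s1 UMIs in fibroblasts and 44.9% in SMCs, with overlapping intervals of 43.1 to 46.1% and 42.7 to 47.0%. In endothelial cells its share was higher, at 62.1% (49.3 to 73.8%), from 41 UMIs of C1ra and 25 of C1s1. C1qb made up 42.4% of the C1qb and C1qa UMIs in macrophages (40.2 to 44.5%) and 37.1% in SMCs (31.1 to 43.5%), with overlapping intervals. These shares are compared across groups only, since UMI counts were not scaled by transcript length.

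Among fibroblasts the members were spread unevenly. C3 had 0 UMIs in 300 of the 1392 barcodes, 1 to 9 in 485 and 10 or more in 607, with a maximum of 115. The 139 fibroblasts highest for C3 held 35.5% of its UMIs, and the corresponding share was 63.4% for C4b, 33.4% for C1ra, 32.5% for C1s1, 25.1% for Serping1 and 24.2% for Dcn, the proteoglycan gene that defines the group, where the 139 deepest barcodes held 19.4% of all UMIs. A gene of few UMIs per barcode has a high share of this kind from counting alone, and C1ra and C1s1 had a median of 1 UMI, against 7 for C3. All of C3, C4b, C1s1, C1ra and Serping1 were found in 316 fibroblasts, 4 of them in 469 and none in 20. Fibroblasts with a mesothelial marker UMI (67 barcodes) held 3641 CPM of C3 and 1390 CPM of Serping1, against 2147 and 2015 CPM in the 1325 without, so the fibroblast levels were about as large without them.

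Fibroblasts were divided by 2 pairs of marker genes outside the members: 714 barcodes had more UMIs of Pi16 and Clec3b, markers of adventitial progenitor-like fibroblasts, and 614 had more of Lum and Serpinf1, matrix genes; 64 were tied. C3 stood at 3722, 3023 and 2708 CPM on the Pi16 and Clec3b side, against 1280, 567 and 1147 CPM on the Lum and Serpinf1 side. The sides did not overlap, and C3 was higher on the Pi16 and Clec3b side by 1.65 ± 0.14 (adjusted p = 4.95e-08, edgeR over 3534 genes), a call kept under all 11 alternatives; the value was 1.03 with at most 10% mitochondrial UMIs. Over all barcodes C3 stood at 2945 CPM on the Pi16 and Clec3b side and 1168 CPM on the Lum and Serpinf1 side, and at 3091 CPM in the 64 tied barcodes. C4b averaged 168 ± 89.5 CPM on the Pi16 and Clec3b side and 201 ± 34.6 CPM on the Lum and Serpinf1 side (SD, n = 3 each), a difference of -0.26 ± 0.23 that was not called.

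C1s1 averaged 402 ± 33.6 CPM on the Pi16 and Clec3b side and 257 ± 8.32 CPM on the Lum and Serpinf1 side (SD, n = 3 each), a difference of 0.64 ± 0.18 (adjusted p = 0.0170, edgeR). Serping1 averaged 2025 ± 272 CPM and 1489 ± 102 CPM in the same order (SD, n = 3 each), a difference of 0.42 ± 0.11 (adjusted p = 0.0100, edgeR). The call of C1s1 was kept under 6 of 11 alternatives and was lost without any 1 of the hashtags; that of Serping1 was kept under 7 of 11 and was lost without hashtag 1 and without hashtag 2. C1ra showed 0.54 ± 0.20 and was not called (adjusted p = 0.0785, edgeR). Of the 5 members tested, 3 were called higher and 0 lower, where 8.86% of all genes were higher and 6.71% lower (15.6%), and the C1q chains did not pass the filter.

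**Figure D4:**
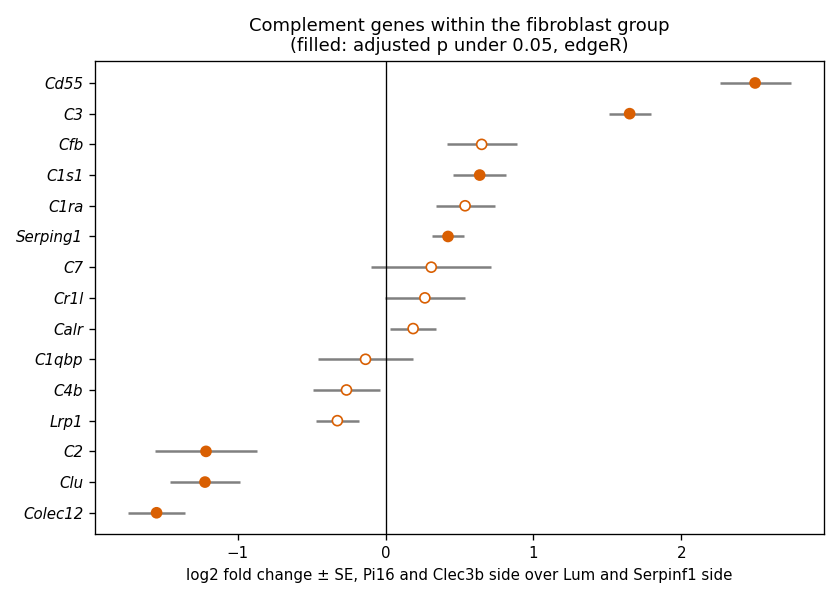
Log2 fold change with its SE (edgeR, hashtag as a block) of the complement genes tested within fibroblasts, the Pi16 and Clec3b side over the Lum and Serpinf1 side; filled points had an adjusted p under 0.05. Cd55 (2.50) and C3 (1.65) lie farthest to the right and Colec12 (-1.55) and Clu (-1.22) farthest to the left.

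Of 50 further complement genes, 20 passed the filter on low counts. In fibroblasts over SMCs, 8 of the 20 were higher and 2 lower, where 21.8% of all genes were higher and 16.5% lower, with a median of 0.22 (0.86 with genes at 0 UMIs in a group set to their floor of 3 UMIs). The terminal component gene C7 averaged 61.9 ± 24.6 CPM in fibroblasts and 0.521 ± 0.508 CPM in SMCs (SD, n = 3 each), a difference of 6.72 ± 0.48. Cfb, the protease of the alternative pathway, was higher by 5.92 ± 0.24, C2, the protease cleaved by C1s, by 5.35 ± 0.37, and Cd55, a membrane protein that speeds the decay of the C3-splitting enzymes, by 5.90 ± 0.25. Cd59a, which blocks the membrane attack complex, and Clu, a fluid-phase regulator, were lower in fibroblasts than in SMCs, by differences of -2.53 ± 0.23 and -1.54 ± 0.16.

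In macrophages over SMCs, 12 of the 20 were higher and 3 lower, where 15.5% of all genes were higher and 15.8% lower, with a median of 3.55 (3.82 with genes at 0 UMIs at their floor). The receptors of the cleaved fragments of C3 and C5 were among them, with C3ar1 at 163 ± 36.3 CPM in macrophages and 0.195 ± 0.175 CPM in SMCs and C5ar1 at 164 ± 71.1 CPM in macrophages and 0.173 ± 0.151 CPM in SMCs (SD, n = 3 each). Their differences were 9.00 ± 0.65 and 9.08 ± 0.64. Itgam and Itgax, chains of the receptors that bind cleaved C3, were higher by 8.91 ± 0.54 and 7.36 ± 0.88, Cfp, the gene of properdin, by 7.35 ± 0.47, and Fcna, a lectin pathway ficolin, by 7.15 ± 0.67.

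In macrophages over fibroblasts, 8 of the 20 were higher and 8 lower, where 11.4% of all genes were higher and 14.4% lower, with a median of -0.30. Over all barcodes Itgam was at least 594-fold higher and C5ar1 at least 451-fold higher in macrophages, against a floor of 3 UMIs in all fibroblasts, where neither was found. C7 had 0 UMIs in macrophages and was at least 7.08-fold lower there than in fibroblasts. C3ar1, Itgb2 and Fcna held 54, 55 and 27 UMIs in macrophages, against 1, 3 and 3 UMIs in fibroblasts. Mbl1, Fcnb, C8a, C8b, C9 and C4bp had 0 UMIs in all 4 groups. Hc, the mouse C5 gene, had 1 UMI, in SMCs, and Cfi, the protease that degrades C3b, had 1, in endothelial cells.

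Within fibroblasts, 1 of 10 further complement genes tested was higher on the Pi16 and Clec3b side and 3 were lower, where 8.86% of all genes were higher and 6.71% lower. Cd55 was higher there by 2.50 ± 0.24, while Colec12, Clu and C2 were lower, by differences of -1.55 ± 0.19, -1.22 ± 0.24 and -1.21 ± 0.34. These genes were named after their values were seen.

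**Figure D5:**
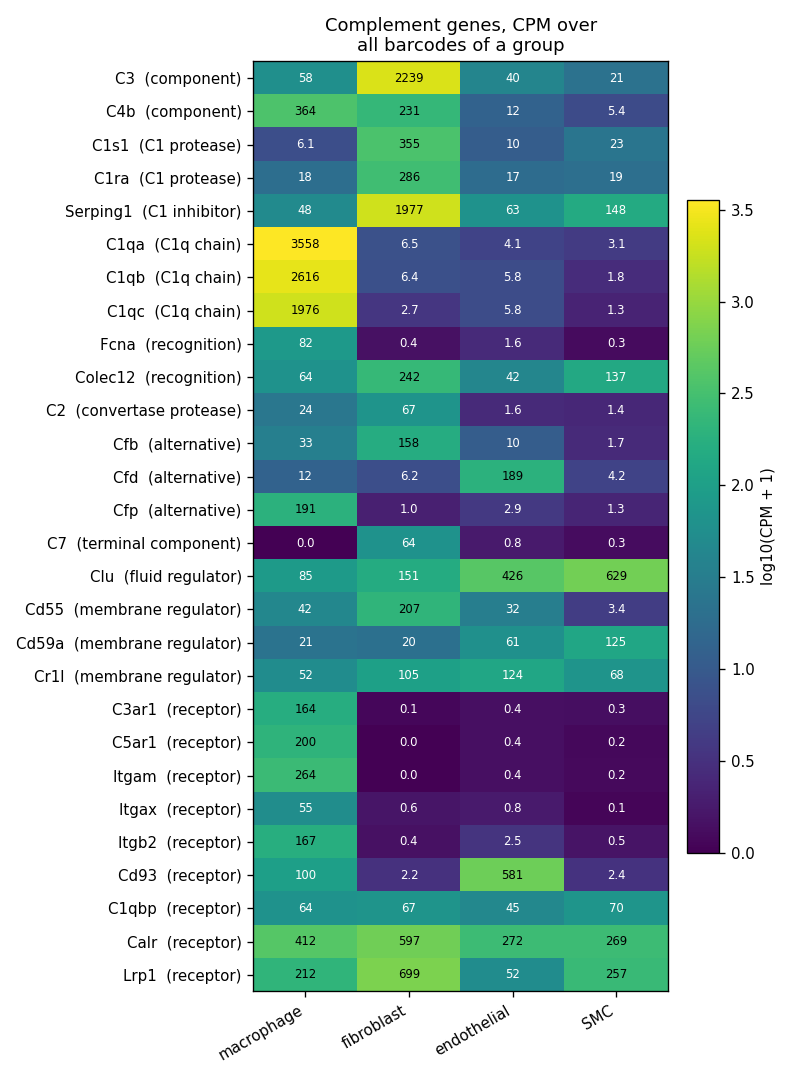
Level over all barcodes of a group (CPM printed in the cells, colour on the scale of log10 of CPM + 1) of the complement genes that passed the filter, in the macrophage, fibroblast, endothelial and SMC groups. C3, C1ra, C1s1, Serping1, Cfb, C2, C7 and Cd55 are highest in fibroblasts, and the C1q chains, C4b and the receptors C3ar1, C5ar1 and Itgam in macrophages.

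The genes most like 4 of the members over the 12 sums were found by Pearson's r of log2 CPM, as a description, since the sums share groups and animals. C3 was most like Cebpd (0.977), a C/EBP transcription factor gene, followed by Hsp90b1, Kdelr2, Plcxd3 and Igsf10. C4b was most like Abca9 (0.974), followed by Igf1, Tgfbi, Sh3kbp1 and Ifi207. Serping1 was most like Penk (0.985), followed by Cnpy2, Lgi2, Muc16 and Upk3b; the last is on the mesothelial marker list. C1qa was most like Lair1 (0.995), an inhibitory receptor gene of white blood cells, followed by Rgs1, Lrrc25, Siglece and AB124611. All of these genes like C1qa stood at the floor of the scale, 0.835 log2 CPM, in fibroblasts and endothelial cells. Their r values therefore rest mainly on macrophages against the other groups. Penk, Lgi2, Muc16, Upk3b, Plcxd3 and Igsf10 stood at that floor in macrophages.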

How the data were processed

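Per the file headers, Cell Ranger 6.0.1 made the deposited UMI counts, which carry no normalization; the submitters' processing notes name the mm10 build and Seurat 4.0.5, and no annotation is named. Hashtags were called with HTODemux (Seurat 5.3.0, positive quantile 0.99), and barcodes with several hashtags were left out of the sums as likely doublets; no other doublet caller was run. Counts were tested with edgeR 4.0.16 in R 4.3.3 (TMM, filterByExpr, quasi-likelihood), with 6 contrasts in 1 fit of 12 sums and a separate fit for the fibroblast sides. The hashtag stood as a block because the groups of a hashtag come from the same animals. On simulated counts for fibroblasts over SMCs (8274 genes), 100 of 100 genes changed 2-fold were called, and so were 11 unchanged genes. Recovery in the macrophage comparisons, whose sums held fewer barcodes, is not given. DESeq2 1.42.0 and other settings were alternatives. SE is the log2 fold change over the root of its F statistic; intervals and floors cover counting error only. P-values measure the spread between sums of called hashtags. In fibroblasts and SMCs the calls rested on weak signals, so that spread need not be the spread between animals.

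The members, marker lists, motifs and tests were chosen with earlier results of these data known. Beside the members, the rule named up to 6 called complement genes with the largest log2 fold change in fibroblasts over SMCs, macrophages over SMCs and macrophages over fibroblasts, and the 5 genes most like C3, C4b, Serping1 and C1qa. The part of RNA from other cells in a droplet was not tested. A result on a further complement gene is not reported here, and the lists leave that gene out.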

Additional observations from a re-analysis of the deposited data

How the results depend on the processing

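Of the member differences under alternative settings, 565 kept direction and call, 11 gained a call, 32 lost one and 38 changed sign; the cause was not tested. The count of members called in fibroblasts over SMCs was 8 with hashtags centred per cell, where C1qa, C1qb and C1qc were called at 2.60, 4.01 and 2.38, against 5. In endothelial cells over SMCs it was 2 with at most 10% mitochondrial UMIs, with hashtags centred per cell and with the ratio caller, and 2 to 3 with a hashtag left out, against 4. On the fibroblast sides it was 1 with DESeq2 and with at most 10% mitochondrial UMIs, and 1 to 2 with a hashtag left out, against 3.

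The sign changes are given as log2 differences. With no haemoglobin limit they were C1qa -0.41, C1qb -0.46 and C1qc -0.31 in fibroblasts over SMCs, C1ra -0.40 and C3 -0.33 in macrophages over SMCs, C1qb -0.016 and C3 -0.59 in endothelial cells over SMCs, and C4b 0.073 on the fibroblast sides. With the ratio caller they were C1qc -3.44 in fibroblasts over SMCs, C1ra -0.45 and C3 -0.00435 in macrophages over SMCs, C1qa 0.31 in endothelial cells over SMCs, and Serping1 -0.35 and C3 -0.16 in macrophages over endothelial cells. With hashtags centred per cell they were C1ra -0.069 in macrophages over SMCs, C1qb 2.44 and C1qc 1.56 in fibroblasts over endothelial cells, and Serping1 -0.69 in macrophages over endothelial cells. With thresholds doubled they were C1ra -0.064 in macrophages over SMCs, C1qb 0.012 and C1qc 0.13 in fibroblasts over endothelial cells, C3 -0.18 in macrophages over endothelial cells, and C4b 0.037 on the fibroblast sides. With no filter they were C1ra -0.19 in macrophages over SMCs, and Serping1 -0.068 and C3 -0.18 in macrophages over endothelial cells. C3 was -0.22 in endothelial cells over SMCs at 10% mitochondrial UMIs, and -0.12 in macrophages over endothelial cells without barcodes with neutrophil, B or T cell UMIs, a setting chosen after seeing the data.

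With a hashtag left out, ranges that crossed 0 were -0.89 to 1.12 for C1qc and -0.37 to 0.51 for C1qa in fibroblasts over SMCs, -0.51 to 0.36 for C1ra and -0.062 to 1.28 for C3 in macrophages over SMCs, -1.80 to 0.23 for C1qb, -1.93 to 0.24 for C1qc and -0.13 to 1.26 for C1qa in fibroblasts over endothelial cells, -0.15 to 0.61 for Serping1 and -0.58 to 0.33 for C3 in macrophages over endothelial cells.

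Without the replicate block, the pairing of groups by hashtag, members called were 5 in fibroblasts over SMCs, 6 in macrophages over SMCs, 3 in endothelial cells over SMCs, 8 in macrophages over fibroblasts, 5 in fibroblasts over endothelial cells, 4 in macrophages over endothelial cells and 3 on the fibroblast sides; the only call lost was C1qb in endothelial cells over SMCs (adjusted p = 0.102, edgeR).

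All-gene counts moved by over 1.5 times as follows. Endothelial cells over SMCs gave 2374 (10% mitochondrial) and 2450 (ratio caller), against 4187. Fibroblasts over endothelial cells gave 1920 (10% mitochondrial), 1890 (per cell) and 1336 (ratio caller), against 3085. Fibroblasts over SMCs gave 1721 (per cell) and 1200 (ratio caller), against 3168. Macrophages over fibroblasts gave 1205 (ratio caller) and 1385 (without hashtag 3), against 2140. The fibroblast sides gave 219 (10% mitochondrial) and 234 (DESeq2), against 550. Macrophage comparisons at 10% mitochondrial UMIs, and the fibroblast sides with per-cell centring or the ratio caller, were not run because sums held under 10 barcodes.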

Other observations

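In endothelial cells, 5 of the 20 further complement genes tested were higher than in SMCs and 5 were lower, near the 26.3% higher and 24.3% lower of all genes. Cd93, a C1q receptor-related membrane gene, was higher by 7.17 and Cfd, the gene of factor D, by 5.22 on the log2 scale. Both were named after their values were seen. Cfd stood at 19.5, 753 and 46.6 CPM in endothelial cells of hashtags 1, 2 and 3, and was found in 7.18% of endothelial barcodes. The list of 5 adipocyte genes, which includes Cfd, stood at 66.7, 892 and 125 CPM in the same sums. The part of RNA from other cells in the Cfd level was not tested. Fibroblasts with no hashtag call (967) and those with a single call (282) held 2208 and 2414 CPM of C3, 241 and 203 CPM of C4b, 363 and 342 CPM of C1s1, 287 and 275 CPM of C1ra, and 2092 and 1767 CPM of Serping1.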
